A study of Mus musculus with 5 samples.

Results

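Glutathione S-transferases were described here through the 10 genes Gstp1, Gstp2, Gsta2, Gsta3, Gsta4, Gstm1, Gstm2, Gstm3, Gstt1 and Mgst1, chosen by symbol among the 18018 genes of the unsmoothed expression table. The study profiled single hepatocytes of 5 male C57BL/6J mice by Drop-seq, in which mRNA is caught by its 3′ end on a bead and given a barcode of the cell and of the molecule (the unique molecular identifier, UMI). All were littermates, 8 weeks old at the start. The HFD group (3 mice, 238 cells) ate a high fat diet for 12 weeks, and the LFD group (2 mice, 216 cells) ate a regular chow diet for the same 12 weeks. All mice were of 1 strain and sex and carried no stated genetic change or drug. All 10 genes were found in the table, each with at least 1 UMI, and every cell held a UMI of at least 1 of them.

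Glutathione S-transferases join the tripeptide glutathione to electrophilic compounds, among them drug metabolites, epoxides and aldehydes from oxidised lipids, and the conjugates are then exported from the cell. The cytosolic enzymes fall into classes named by Greek letters (alpha, mu, pi and theta among them), while microsomal transferases such as Mgst1 belong to a separate family of membrane proteins. In liver, hepatocytes near the central vein carry most of the drug metabolism, and many transferase genes are targets of the transcription factor NRF2, which binds antioxidant response elements.

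Some of the genes lie in small clusters of duplicates, which bears on what a 3′ tag can tell apart. Gstp1 spans chr19:4035407-4037985 on the minus strand of GRCm38 (GENCODE vM21), and Gstp2 starts 2300 bases beyond it at chr19:4040285-4046023 on the same strand. Their reference transcripts were 95.7% identical over 786 aligned bases, and their last 369 bases were the same base for base, so a tag within that stretch cannot be given to 1 of the pair. Gstm3, Gstm2 and Gstm1 stand in this order on the minus strand of chromosome 3, with gaps of 12419 and 25802 bases, and the transcripts of Gstm1 and Gstm3 were 87.6% identical. Gsta4 and Gsta2 lie on chromosome 9, and Gsta2 was 97.2% identical to Gsta1 over 870 bases, with 94.6% identity in the last 300 bases. Gsta3 is on chromosome 1, Gstt1 on chromosome 10 and Mgst1 on chromosome 6. All 10 are protein coding. The labels and files do not say how reads shared by such copies were counted, so the split between Gstp1 and Gstp2, and to a lesser degree that between Gsta2 and Gsta1, is uncertain.

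RefSeq promoter windows (GRCm38.p6) were matched for 9 of the 10 genes, Gsta4 being the one without. They were searched on both strands, from 250 bases before to 50 bases after the start, for the antioxidant response element core TGACNNNGC and for the AP-1 sequence TGACTCA. The first was found in 12.4% of all 32851 windows and, among these genes, in Gsta3 and Mgst1. The second was found in 5.20% of all windows and, among these genes, in Gstp1 and Gstp2. The other genes with a window, Gstm1 among them, had no match, nor had the second window of Mgst1. The 250 bases before the start of the 4 genes with a match are shown for that reason. Capitals mark the motif, which in Gstp1, Gstp2 and Mgst1 reads as its reverse complement.
Gstp1 (chr19:4037913-4038162, minus strand): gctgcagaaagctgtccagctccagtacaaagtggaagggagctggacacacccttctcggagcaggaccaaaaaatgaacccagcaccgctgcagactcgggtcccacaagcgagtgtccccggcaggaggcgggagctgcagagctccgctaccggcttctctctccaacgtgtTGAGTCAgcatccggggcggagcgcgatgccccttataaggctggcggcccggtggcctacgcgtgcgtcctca
Gstp2 (chr19:4042222-4042471, minus strand): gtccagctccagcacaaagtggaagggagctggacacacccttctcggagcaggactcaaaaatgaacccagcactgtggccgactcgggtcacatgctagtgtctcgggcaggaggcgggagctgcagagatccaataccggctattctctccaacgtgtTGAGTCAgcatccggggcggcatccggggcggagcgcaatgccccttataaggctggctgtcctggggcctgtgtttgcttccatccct
Gsta3 (chr1:21240335-21240584, plus strand): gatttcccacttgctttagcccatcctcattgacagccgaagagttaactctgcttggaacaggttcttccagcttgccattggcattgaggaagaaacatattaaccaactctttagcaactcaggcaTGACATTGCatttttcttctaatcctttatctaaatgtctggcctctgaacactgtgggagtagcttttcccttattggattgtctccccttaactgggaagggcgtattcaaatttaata
Mgst1 (chr6:138140277-138140526, plus strand): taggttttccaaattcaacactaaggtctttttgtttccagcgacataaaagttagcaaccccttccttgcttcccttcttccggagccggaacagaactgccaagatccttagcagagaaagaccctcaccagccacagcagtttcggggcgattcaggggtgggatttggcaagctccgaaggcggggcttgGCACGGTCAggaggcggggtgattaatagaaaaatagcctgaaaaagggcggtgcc
The capitals begin 74 bases before the start of Gstp1, 89 before that of Gstp2, 121 before that of Gsta3 and 56 before that of Mgst1. The Gstp1 and Gstp2 stretches were 88.8% identical over 232 aligned bases, with 26 mismatches, and the AP-1 letters were among the bases they share. A match of letters describes the sequence and says nothing of whether a factor binds it.

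Depth differed widely between mice, and 1 library stood apart. HFD mouse 1 gave 5 cells and 27903 UMIs, HFD mouse 3 gave 25 cells and 58470 UMIs, and the other 3 mice gave 84 to 208 cells and 309050 to 656803 UMIs. Cells of all mice carried hepatocyte markers, with a median of 22 to 24 of 25 markers per cell. HFD mouse 1 had 8.98% mitochondrial UMIs, against 5.10% to 5.63% in the other 4 mice. Its sinusoidal endothelial markers, 4 detected of 16, summed to 1649 counts per 1000000 UMIs (CPM), where each other mouse had 19.4 to 35.0. Erythroid markers summed to 609 CPM there and to 393 CPM in the third HFD mouse, where the remaining mice had 87.3 to 129 CPM. The defining T or NK, B and cholangiocyte markers were at 0 in HFD mouse 1, and 3 of its 5 cells had at least 3 UMIs of another cell type. Tests of diet and of the lobule axis are therefore given with all 5 mice and again without HFD mouse 1. The part of these values in the results was not tested.

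Together the 10 genes made up 0.738% to 1.46% of the UMIs of a mouse. Their sum was 7383, 10944 and 11134 CPM in the HFD mice, against 14595 and 12306 CPM in the LFD mice, and the groups did not overlap. The lowest sum, that of HFD mouse 1, stands for 206 UMIs in 5 cells. Of the single genes tested for diet below, 14.3% were likewise lower in every HFD mouse than in every LFD mouse. Mgst1 was the most abundant in every mouse and was detected in all 454 cells. Gsta3, Gstm1 and Gstp1 formed a middle group, with UMIs in 89.2%, 82.2% and 81.9% of all cells. Gstt1 was found in 46.0%, Gsta4 in 24.0% and Gsta2 in 15.2% of cells, and Gstm3 (9.69%), Gstm2 (8.15%) and Gstp2 (1.32%) were rare. Since 1 UMI stands for 1 molecule tagged at its 3′ end, levels of different genes were compared in CPM without scaling by length.

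**Figure D1:**
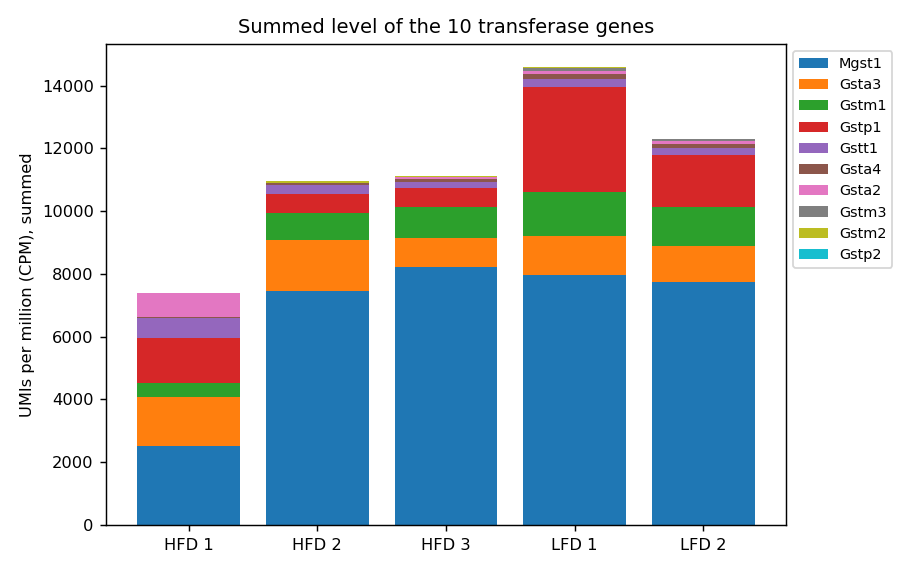
Summed level of the 10 genes in CPM (UMIs per 1000000, vertical axis) in each HFD and LFD mouse, with 1 colour per gene and no error bars. The HFD bars end at 7383 to 11134 CPM and the LFD bars at 12306 and 14595 CPM, and Mgst1 (bottom) is the tallest block in each.

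The make-up of the sum differed between mice. Gstp1 supplied 19.4%, 5.59% and 5.38% of the family's UMIs in the HFD mice, against 22.9% and 13.5% in the LFD mice. Mgst1 supplied 34.0%, 68.1% and 73.9% in the HFD mice, against 54.6% and 63.0% in the LFD mice. Among the HFD mice, the first thus had a Gstp1 share like that of LFD mice and the lowest Mgst1 share of all 5.

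The diet comparison asked which of the genes had a different level in hepatocytes after the high fat diet. Summed UMIs of each mouse were tested by limma voom over all 3614 genes that passed a filter on low levels, with Benjamini-Hochberg adjusted p under 0.05 as the threshold. Of the 10 genes, 9 were tested, Gstp2 being too rare. With all 5 mice, 0 of 9 passed, on a background of 0.221% of all tested genes (0.166% lower and 0.0553% higher in HFD), and 3 of 9 had an unadjusted p under 0.05, on a background of 5.01%. The levels of Gstp1, Gsta4 and Gstm1 were lower in every HFD mouse than in every LFD mouse. With the rare Gstm3 these were 4 of the 9, on a background of 14.3% of tested genes. In every HFD mouse 0 of 9 were higher, on a background of 8.88%. Gstm3 is also 1 of the 3 with an unadjusted p under 0.05. It entered the test only through its level in the LFD mice. Its direction was thus set by the filter, and it adds nothing of its own to these counts. Without HFD mouse 1, Gstp1 and Gsta4 passed as lower in HFD. The background was 3.38% in either direction and 2.1% lower in HFD (77 of 3670 genes). Gsta2 and Gstm3 passed as well, but neither is counted as a fall. Gstm3 again entered the test only through its level in the LFD mice. Gsta2 reached the filter's level in 1 HFD mouse and both LFD mice of that fit. Since 2 mice were needed, the HFD mice alone would not have let it in. None of the 9 passed as higher in HFD, where the background was 1.28%. With 5 mice, 7 of the 9, Gstm3 among them, had a log2 fold change below 0, on a background of 56.5%. The median of the 9 was -0.59 without HFD mouse 1 and -0.81 with all 5, against 0.00 and -0.08 over all tested genes in those fits.

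Gstp1, the main pi-class transferase of mouse liver, fell in the HFD mice in the test without HFD mouse 1. It had 1434, 612 and 599 CPM in the HFD mice, against 3343 and 1660 CPM in the LFD mice. HFD mice 2 and 3 lay close together, and HFD mouse 1 lay just under LFD mouse 2, with 95% counting intervals that overlapped (1024 to 1952 CPM and 1519 to 1810 CPM). The LFD mice differed from each other by more than HFD mouse 1 differed from LFD mouse 2. The log2 fold change was -1.98 (SE 0.26, limma voom adjusted p = 0.000274) without HFD mouse 1 and -1.80 (SE 0.39, adjusted p = 0.145) with all 5 mice. Of the 40 Gstp1 UMIs of HFD mouse 1, 24 came from a single barcode with 6598 UMIs and only 636 detected genes. The same barcode held 20 of that mouse's 21 Gsta2 UMIs and 16 of its 18 Gstt1 UMIs.

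In single cells, the median cell held 7.16, 5.44 and 5.83 Gstp1 UMIs per 10000 UMIs in the HFD mice, against 31.4 and 15.3 in the LFD mice. In HFD mouse 2, which had 208 cells, the upper quartile was 9.86 per 10000, against lower quartiles of 20.4 in LFD mouse 1 and 9.32 in LFD mouse 2. The quartile ranges of HFD mouse 2 and LFD mouse 1 did not meet, while those of HFD mouse 2 and LFD mouse 2 met at their edges. The upper quartile of HFD mouse 1, 15.7 per 10000 over its 5 cells, lay above the median of LFD mouse 2, and that of HFD mouse 3 was 7.93 per 10000.

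**Figure D2:**
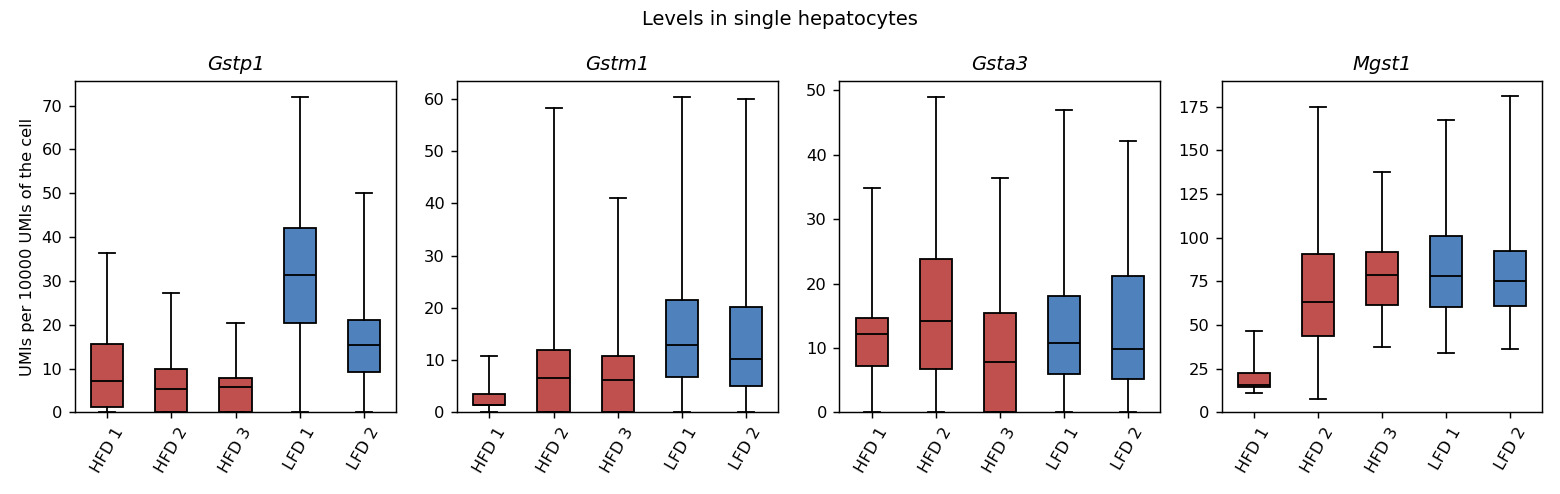
UMIs of Gstp1, Gstm1, Gsta3 and Mgst1 per 10000 UMIs of the cell (vertical axes) in single hepatocytes of each HFD and LFD mouse. Boxes span the quartiles, the line is the median and whiskers reach the lowest and highest cell; for Gstp1 the medians are 5.44 to 7.16 in HFD mice and 15.3 and 31.4 in LFD mice.

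Gstp2, the close copy of Gstp1, was detected only as 6 UMIs in 6 cells of LFD mouse 1, which is 13.4 CPM. The other 4 mice had 0 UMIs, which allows up to 108, 4.57 and 51.3 CPM in the HFD mice and up to 9.71 CPM in LFD mouse 2. At this depth no difference between the diets was detectable for it.

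Of the 3 alpha-class genes, Gsta4 fell in HFD without HFD mouse 1 and Gsta3 passed in neither test. Gsta2 passed without HFD mouse 1, but its place in that fit rested on the LFD mice, so the values below only describe its size. Gsta2 had 753, 16.7 and 51.3 CPM in the HFD mice, against 105 and 80.9 CPM in the LFD mice. HFD mouse 1 was far above all others, through the single barcode named above, while the other 2 HFD mice lay under both LFD mice. Its log2 fold change was -2.34 (SE 0.37, limma voom adjusted p = 0.0016) without HFD mouse 1 and -1.08 (SE 0.91, adjusted p = 0.988) with 5 mice, so the call rests on leaving that mouse out. The HFD values rest on 11 UMIs in mouse 2 and 3 in mouse 3.

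Gsta4, which in mammals conjugates the lipid peroxidation product 4-hydroxynonenal, had 35.8, 59.4 and 103 CPM in the HFD mice, against 154 and 129 CPM in the LFD mice. All HFD mice were below both LFD mice, but the values of HFD mice 1 and 3 stand for 1 and 6 UMIs. The log2 fold change was -1.19 (SE 0.28, limma voom adjusted p = 0.0249) without HFD mouse 1 and -1.08 (SE 0.50, adjusted p = 0.939) with 5 mice.

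Gsta3, an alpha-class enzyme known in mouse for detoxifying the aflatoxin epoxide, had 1577, 1634 and 924 CPM in the HFD mice, against 1224 and 1149 CPM in the LFD mice. The LFD mice lay within the range of the HFD mice. Its log2 fold change was 0.18 (95% interval -0.28 to 0.63, limma voom adjusted p = 0.725) without HFD mouse 1 and 0.22 (SE 0.32, adjusted p = 0.988) with all 5.

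Among the mu-class genes, Gstm1 was lower in every HFD mouse without passing the threshold, Gstm2 overlapped between the diets, and Gstm3 was too rare in HFD for its direction to count as tested. Gstm1, the most abundant mu-class transferase here, had 430, 862 and 975 CPM in the HFD mice, against 1414 and 1239 CPM in the LFD mice. The log2 fold change was -0.59 (SE 0.16, limma voom adjusted p = 0.0573) without HFD mouse 1 and -0.81 (SE 0.34, adjusted p = 0.925) with 5 mice.

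Gstm3 had 0, 13.7 and 17.1 CPM in the HFD mice (0, 9 and 1 UMIs), against 67.1 and 55.0 CPM in the LFD mice (30 and 17 UMIs). The groups did not overlap, although the 0 of HFD mouse 1 allows up to 108 CPM. Gstm3 entered the test only through its level in the LFD mice, since its HFD values lie under the 32.4 CPM that 2 mice had to reach, so the values below only describe its size. The log2 fold change was -2.05 (SE 0.42, limma voom adjusted p = 0.0118) without HFD mouse 1 and -1.93 (SE 0.56, adjusted p = 0.434) with 5 mice. Gstm2 had 0, 33.5 and 34.2 CPM in the HFD mice, against 38.0 and 22.7 CPM in the LFD mice, with a log2 fold change of 0.10 without HFD mouse 1 (95% interval -0.76 to 0.96) and -0.03 (SE 0.60) with all 5.

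The theta-class gene Gstt1, whose product acts on small halogenated alkanes, had 645, 265 and 205 CPM in the HFD mice, against 269 and 217 CPM in the LFD mice. Apart from HFD mouse 1 the values of both diets lay in 1 narrow range, and the log2 fold change without it was 0.04 (95% interval -0.43 to 0.51, limma voom adjusted p = 0.949), against 0.25 (SE 0.45) with all 5. Mgst1, a membrane enzyme of the endoplasmic reticulum and outer mitochondrial membrane that also reduces lipid hydroperoxides, had 2509, 7448 and 8226 CPM in the HFD mice, against 7967 and 7753 CPM in the LFD mice. HFD mouse 1 held the lowest level, and the other 4 lay in 1 range. The Mgst1 log2 fold change was -0.06 without HFD mouse 1 (95% interval -0.32 to 0.20, limma voom adjusted p = 0.855) and -0.35 (SE 0.32, adjusted p = 0.988) with 5 mice.

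**Figure D3:**
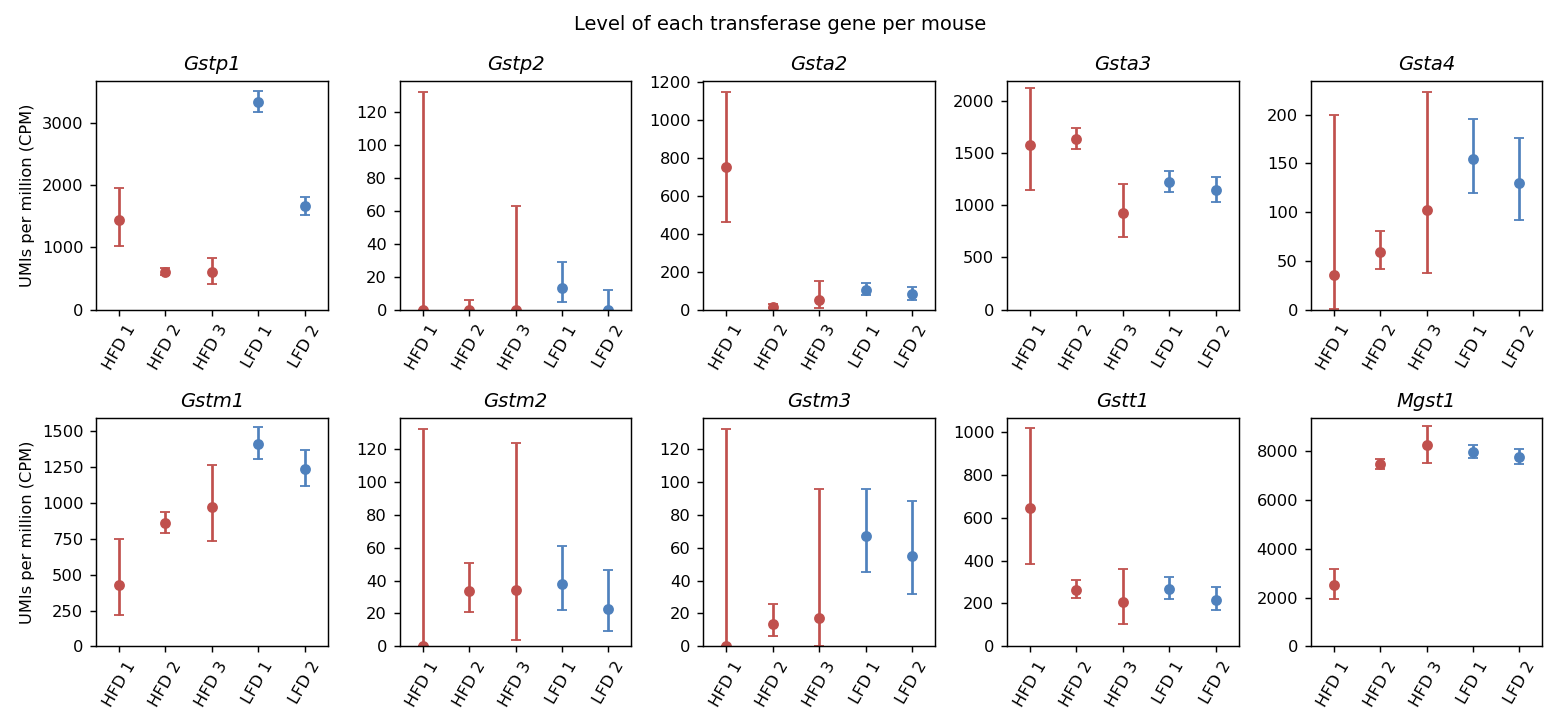
Level of each of the 10 genes in CPM (UMIs per 1000000, vertical axes from 0) in each HFD mouse (red) and LFD mouse (blue); bars are exact 95% Poisson intervals, which cover counting error only. Gstp1, Gsta4, Gstm1 and Gstm3 have every HFD point below both LFD points, and HFD mouse 1 has the widest intervals.

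**Figure D4:**
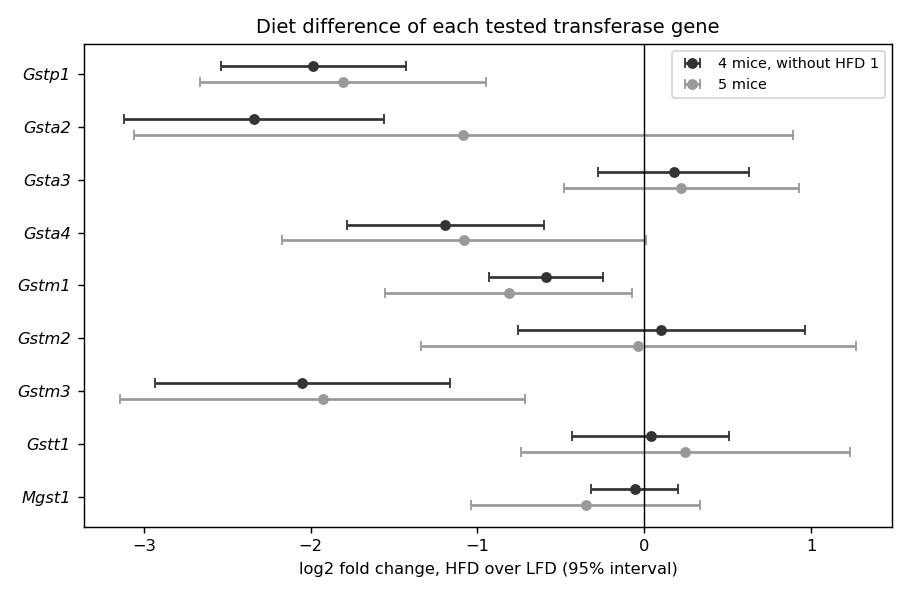
Log2 fold change of HFD over LFD (horizontal axis) with 95% limma voom intervals for the 9 tested genes, in 4 mice without HFD mouse 1 (black) and in all 5 mice (grey). In the 4 mice Gstp1 and Gsta4 passed the adjusted threshold, and Mgst1 lies at -0.06. Gsta2 and Gstm3 passed too, but the HFD mice alone would not have let them into that fit.

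When the cells with at least 3 UMIs of another cell type's markers were left out of all 5 mice, 3 of 5 cells of HFD mouse 1 among them, 2 of the 9 genes passed, on a background of 1.27% of tested genes. Both were lower in HFD, where the background was 0.811%. They were Gstp1, with a log2 fold change of -1.86 (SE 0.32, limma voom adjusted p = 0.00208), and Gsta2, with -1.87 (SE 0.46, adjusted p = 0.0434). HFD mice 2 and 3 held at most 11 and 3 Gsta2 UMIs, so the Gsta2 value again only describes its size. HFD mouse 1 was then represented by 2 cells.

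The share of cells with a UMI was compared after thinning each cell to 1728 UMIs, the 25th percentile, which left out 0 of 5, 74 of 208 and 11 of 25 cells of the HFD mice and 18 of 132 and 10 of 84 cells of the LFD mice. With 3 mice against 2, the two-sided exact permutation test cannot give a p below 0.2, so the shares are a description. For Gstp1 they were 40%, 60.4% and 71.4% of cells in the HFD mice, against 98.2% and 93.2% in the LFD mice (exact permutation p = 0.2, 0.667 adjusted over the 10 genes). Unthinned, they were 80%, 68.3% and 64% in the HFD mice, against 99.2% and 94.0% in the LFD mice. Gstp1 was thus detected in nearly all thinned LFD hepatocytes and in 40% to 71.4% of those of the HFD mice. The exact 95% binomial intervals were 5.27% to 85.3%, 51.6% to 68.8% and 41.9% to 91.6% in the HFD mice, against 93.8% to 99.8% and 84.9% to 97.8% in the LFD mice. Those of HFD mice 1 and 3 overlapped with that of LFD mouse 2, and the intervals count cells of single libraries, not mice. The difference of the mean shares, HFD minus LFD, was -29.8 percentage points without HFD mouse 1 and -38.5 with all 5 mice.

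Gsta4 and Gstm3 had the same order of groups. Gsta4 was detected in 0%, 10.4% and 7.14% of thinned cells in the HFD mice, against 22.8% and 21.6% in the LFD mice. The values of HFD mice 1 and 3 stand for 0 of 5 and 1 of 14 thinned cells. Without thinning, Gsta4 shares were 20%, 14.4% and 24% in the HFD mice, against 34.1% and 32.1% in the LFD mice. The order of the groups held, but HFD mouse 3 lay closer to the LFD mice. The thinned 0% of HFD mouse 1 comes from the random draw, since 1 of its 5 cells held a Gsta4 UMI. Gstm3 was detected in 0 of 5, 0 of 134 and 0 of 14 thinned cells in the HFD mice, against 9.65% and 9.46% in the LFD mice. Unthinned, its shares were 0%, 3.85% and 4% in the HFD mice, against 15.2% and 17.9% in the LFD mice. The thinned 0 values of HFD mice 2 and 3 thus come from a single random draw and do not mean that their cells lacked it. Gsta4 and Gstm3 both reached the smallest p that the exact permutation test can give, 0.2. For Gstm1 the shares were 20%, 67.9% and 85.7% in the HFD mice, against 85.1% and 87.8% in the LFD mice, and HFD mouse 3 reached into the LFD range. Without HFD mouse 1 the difference of mean shares was -13.4 points for Gsta4, -9.55 for Gstm3 and -9.65 for Gstm1, against -16.4, -9.55 and -28.6 with all 5. Gstt1 shares were 20%, 35.8% and 21.4% in the HFD mice, against 36.0% and 32.4% in the LFD mice, and those of Gsta3 were 80%, 85.8% and 78.6% in the HFD mice, against 78.1% and 81.1% in the LFD mice. The table holds hepatocytes only, so no cell type that lacks these genes was there to measure the share that free RNA alone would give.

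The lobule axis runs from hepatocytes around the central vein (pericentral) to those around the portal vein (periportal). Within a mouse, cells were ordered by the log ratio of pericentral to periportal score UMIs, from 21 genes on each side that include none of the 10, and divided at the median. The sums of both sides were tested with limma voom with the mouse as a block, over 1713 genes outside the scores. The levels of 7 of the 10 genes allowed the test, Gstp2, Gstm2 and Gstm3 being too rare. With all 5 mice, 0 of 7 passed, on a background of 0.0584% of tested genes (1 of 1713), and the median log2 fold change of all tested genes was -0.29, so that values are read against that shift. Of the 7, 4 lay above 0, on a background of 29.6%. Gsta3 and Mgst1 were higher on the pericentral side in every mouse, on a background of 4.32% of tested genes, and 0 of 7 were lower there in every mouse, on a background of 6.48%. Without HFD mouse 1, whose sides hold 2 pericentral and 3 periportal cells, 4 of 7 passed, on a background of 8.08% of 1968 genes. Of these, 3 were higher pericentrally (Gstm1, Gsta3 and Mgst1, background 3.56%) and Gstp1 was lower there (background 4.52%), and the median of all genes was then -0.02.

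Gsta3 had 2415, 2099 and 1133 CPM in the pericentral cells of the HFD mice, against 723, 1082 and 702 CPM in their periportal cells. In the LFD mice it had 1821 and 1799 CPM in pericentral cells, against 845 and 625 CPM in periportal cells. The pericentral side was higher in 5 of 5 mice, with a log2 fold change of 1.00 (SE 0.13, limma voom adjusted p = 7.43e-06) without HFD mouse 1 and 0.99 (SE 0.20, adjusted p = 0.248) with it.

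Gstm1 had 142, 1176 and 1100 CPM in pericentral cells of the HFD mice, against 723, 489 and 843 CPM in periportal cells. In the LFD mice it had 2120 and 1937 CPM in pericentral cells, against 966 and 678 CPM in periportal cells. The pericentral side was higher in 4 of 5 mice, the exception being HFD mouse 1 with 2 and 10 UMIs. Its log2 fold change was 1.09 (SE 0.13, limma voom adjusted p = 4.6e-06) without that mouse and 0.81 (SE 0.39, adjusted p = 0.598) with all 5.

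Mgst1 had 3551, 9149 and 9101 CPM in pericentral cells of the HFD mice, against 1447, 5430 and 7305 CPM in periportal cells. In the LFD mice it had 9605 and 9240 CPM in pericentral cells, against 6926 and 6555 CPM in periportal cells. All 5 mice were higher on the pericentral side, by a log2 fold change of 0.42 (SE 0.09, limma voom adjusted p = 0.00297) without HFD mouse 1 and 0.44 (SE 0.11, adjusted p = 0.45) with it.

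Gstp1 ran the other way. It had 1776, 398 and 500 CPM in pericentral cells of the HFD mice, against 1085, 866 and 702 CPM in periportal cells, and 2760 and 1465 CPM in pericentral cells of the LFD mice, against 3714 and 1817 CPM in periportal cells. It was lower pericentrally in 4 of 5 mice, again with HFD mouse 1 as the exception. The log2 fold change was -0.69 (SE 0.13, limma voom adjusted p = 0.00138) without that mouse and -0.62 (SE 0.22, adjusted p = 0.587) with it. In thinned cells the share with a Gstp1 UMI was 42.6% of pericentral and 78.8% of periportal cells of HFD mouse 2, and 96.1% of pericentral and 100% of periportal cells of LFD mouse 1.

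With the cells of each mouse in 3 groups of like size (pericentral, middle and periportal), the 4 genes differed stepwise in the deepest libraries. Gsta3 had 2398, 1264 and 1049 CPM in the pericentral, middle and periportal group of HFD mouse 2, and 2114, 1214 and 706 CPM in LFD mouse 1. Gstp1 had 355, 558 and 977 CPM in those groups of HFD mouse 2, and 2533, 3221 and 3915 CPM in LFD mouse 1. The largest part of the Mgst1 step lay between the pericentral and the middle group, with 10265, 6051 and 5325 CPM along the axis of HFD mouse 2. LFD mouse 1 had 10506, 7429 and 6877 CPM. Periportal cells of LFD mouse 1 were deeper than pericentral cells (median 3541 against 2068 UMIs), while the sides of HFD mouse 2 were alike (2193 pericentral and 2076 periportal). The part of depth in the axis result was not tested.

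**Figure D5:**
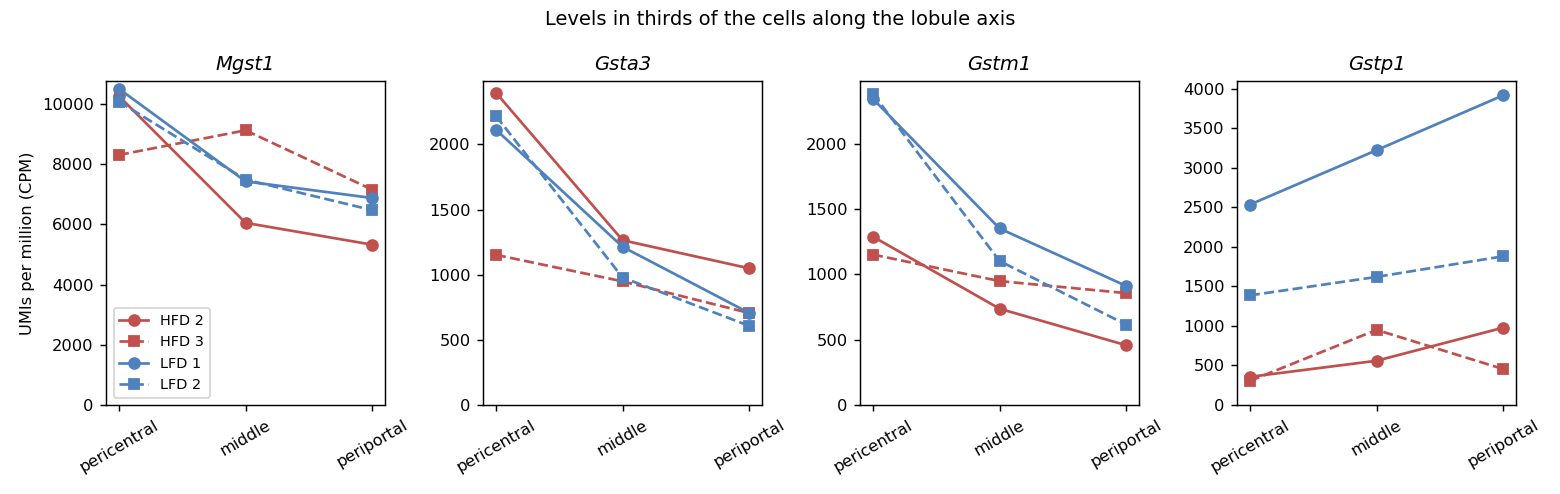
Level of Mgst1, Gsta3, Gstm1 and Gstp1 in CPM (UMIs per 1000000, vertical axes from 0) in 3 groups of each mouse's cells, ranked from pericentral to periportal; red lines are HFD mice 2 and 3, blue lines LFD mice 1 and 2, with no error bars. Mgst1, Gsta3 and Gstm1 are lower in the periportal than in the pericentral group of each mouse shown, and Gstp1 is higher there; HFD mouse 1 is not drawn, since its groups hold 1 or 2 cells.

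The remaining genes showed no tested difference along the axis. Gstt1 had a pericentral over periportal log2 fold change of 0.12 (95% interval -0.30 to 0.53) without HFD mouse 1 and 0.32 (SE 0.48) with all 5 mice. For Gsta4 the values were 0.28 (-0.21 to 0.78) without that mouse and -0.53 (SE 0.45) with it, so the direction turned, and for Gsta2 they were -0.54 (-1.28 to 0.20) and -0.20 (SE 0.86). The rare mu-class genes could be given as counts only. Gstm2 had 0, 21 and 1 UMIs in pericentral cells of the HFD mice, against 0, 1 and 1 in periportal cells, and 14 and 6 UMIs in pericentral cells of the LFD mice, against 3 and 1 in periportal cells. For Gstm3 the counts were 0, 8 and 1 in pericentral cells of the HFD mice, against 0, 1 and 0 in periportal cells, and 22 and 14 in pericentral cells of the LFD mice, against 8 and 3 in periportal cells. In HFD mouse 2 and both LFD mice, most UMIs of these rare genes lay on the pericentral side, as those of Gstm1 did.

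Whether the axis difference itself changed with diet was tested as an interaction. With all 5 mice, 0 of 7 genes passed, on a background of 0% of tested genes. Of the 1713 tested genes, 4 (0.234%) had an unadjusted p under 0.05 in limma voom, far fewer than expected with no effect. The 0 calls of this fit thus do not show that the axis difference was alike in both diets. Without HFD mouse 1, 0 of 7 passed, on a background of 0.102% of tested genes. The smallest p among the 7 was then that of Gstp1, whose axis log2 fold change was lower in HFD than in LFD by -0.68 (SE 0.23, limma voom adjusted p = 0.857). The interval for Mgst1, -0.32 to 0.46, was the narrowest.

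Across the 454 cells, with the mean of each mouse subtracted from the log values, the genes nearest to each common transferase were described by Pearson's r among the 1500 genes found in over 20% of cells. All cells of a mouse share a library, and each gene's values share the depth of the cell. The nearest genes to Gstp1 were Mup3 (r = 0.43), Mup20 (0.42) and Fgb (0.37), which encode 2 major urinary proteins and a fibrinogen chain. For Gsta3 they were Cyp2e1 (0.42), Rgn (0.42) and Slco1b2 (0.37), and for Gstm1 they were Cyp2c29 (0.39), Cyp2e1 (0.38) and Rgn (0.37). For Mgst1 they were Cyp2e1 (0.52), Apoa2 (0.50) and Mup17 (0.50). Among the transferases themselves the highest values were 0.36 for Gstm1 with Mgst1, 0.31 for Gsta3 with Mgst1 and 0.28 for Gsta3 with Gstm1, and the lowest was -0.21 for Gstp1 with Gsta3. Gstp1 had a negative r with 7 of the 9 others. Without the cells of HFD mouse 1 (449 cells), each of these named values moved by less than 0.02.

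Other genes of the glutathione pathway were read in the same fits, and 0 passed in any list with all 5 mice. For diet, 9 of 19 further transferase genes were tested. Their log2 fold changes had a median of 0.04 when HFD mouse 1 was left out and -0.44 with 5 mice, against 0.00 and -0.08 over all genes. Without HFD mouse 1, 1 of the 9 passed as higher and 1 as lower in HFD, on backgrounds of 1.28% and 2.1% of tested genes. In either direction the background for diet was 3.38% without HFD mouse 1 and 0.221% with all 5, here and for the lists below. Mgst3, another microsomal transferase, had 0, 77.6 and 68.4 CPM in the HFD mice, against 8.95 and 12.9 CPM in the LFD mice. Its log2 fold change was 2.79 (SE 0.67, limma voom adjusted p = 0.0281) without HFD mouse 1 and 2.32 (SE 0.71, adjusted p = 0.525) with it, but it entered the test only through the HFD mice. Gstt2, of the theta class, had 0, 65.5 and 120 CPM in the HFD mice, against 168 and 165 CPM in the LFD mice. It fell without HFD mouse 1, with a log2 fold change of -1.26 (SE 0.27, limma voom adjusted p = 0.0148), against -1.47 (SE 0.59, adjusted p = 0.923) with all 5.

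Of 18 genes of glutathione synthesis, recycling and breakdown, 7 were tested for diet, with a median log2 fold change of 0.19 without HFD mouse 1 and 0.39 with 5 mice. Of these, 1 passed without HFD mouse 1, where 1.28% of all tested genes passed as higher in HFD. This was Gclc, the catalytic subunit of the rate-limiting synthesis enzyme, which had 287, 340 and 222 CPM in the HFD mice, against 159 and 175 CPM in the LFD mice. It rose by a log2 fold change of 0.89 (SE 0.24, limma voom adjusted p = 0.0484) without HFD mouse 1 and stood at 0.80 (SE 0.43, adjusted p = 0.988) with it. Oplah, which opens oxoproline to glutamate, had 466, 39.6 and 85.5 CPM in the HFD mice, against 44.8 and 25.9 CPM in the LFD mice, with a log2 fold change of 0.19 (SE 0.38) without HFD mouse 1 and 1.09 (SE 0.76) with it.

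Of 14 genes of conjugate export and mercapturate formation, 0 of 10 tested passed without HFD mouse 1 and 0 of 9 with 5 mice, with medians of -0.22 and -0.42. The smallest p with 5 mice were those of the mitochondrial carriers Slc25a11 (-0.43, SE 0.47 without HFD mouse 1 and -1.13, SE 0.71 with it) and Slc25a39 (-0.36, SE 0.21 and -0.60, SE 0.46). Of 22 NRF2 targets outside the family, 0 of 15 tested passed in either fit, with medians of 0.03 without HFD mouse 1 and 0.09 with it. Cbr1 had a log2 fold change of 0.76 (SE 0.38) without HFD mouse 1 and 0.92 (SE 0.55) with it. Osgin1 had 1075, 70.0 and 17.1 CPM in the HFD mice, against 166 and 142 CPM in the LFD mice, and a log2 fold change of -1.19 (SE 0.33, limma voom adjusted p = 0.0598) without HFD mouse 1 and -0.87 (SE 0.87) with it.

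Along the lobule axis, 0 of the 4 other transferases, 0 of 3 synthesis genes, 0 of 7 export genes and 0 of 11 NRF2 targets passed with 5 mice, on the background of 0.0584% given above, with median log2 fold changes of 0.19, -0.62, 0.06 and 0.16. Without HFD mouse 1, 0 of 4, 0 of 3, 1 of 8 and 2 of 12 passed, on the background of 8.08%, with medians of -0.06, 0.14, 0.25 and 0.36. The 3 that passed were all higher in pericentral cells, where the background was 3.56% (4.52% passed as lower there). So few calls are not read as a trait of the lists. They were Abcc3, Ces1g and Me1. Abcc3, an exporter of conjugates, gave 1.25 (SE 0.37, limma voom adjusted p = 0.0383). The carboxylesterase gene Ces1g gave 0.97 (SE 0.27, limma voom adjusted p = 0.024). Me1, the NADPH-forming malic enzyme, gave 1.15 (SE 0.36, limma voom adjusted p = 0.0479). Me1 was scarce, at 79.2 CPM (HFD mouse 2), 34.2 (HFD mouse 3), 51.5 (LFD mouse 1) and 29.1 (LFD mouse 2). Apart from HFD mouse 2 these levels lay under the 64.7 CPM of the axis filter with all 5 mice. Its direction may thus have been set by the filter, and its value only describes its size. The genes of smallest p with 5 mice were Gstz1 (0.19, SE 0.15 without HFD mouse 1 and 0.41, SE 0.36 with it) and Gsto1 (-0.43, SE 0.30 and -0.37, SE 0.33) among transferases. In synthesis they were Gclm (0.14, SE 0.17 and -0.62, SE 0.59) and Gclc (0.23, SE 0.19 and -0.70, SE 0.71), whose direction turned. In export they were Acy3 (-0.34, SE 0.31 and -1.07, SE 0.45) and Abcc2 (0.41, SE 0.20 and 0.30, SE 0.32), and among NRF2 targets Txnrd1 (0.37, SE 0.28 and 1.09, SE 0.46) and Txn1 (0.35, SE 0.15 and 0.69, SE 0.40).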

How the data were processed

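Per the submitters' processing notes, reads were processed with STAR 2.6.0a and mm10. Neither labels nor files state the cell filter, gene annotation, strand, counting of shared reads or doublet treatment. The deposited table made by the authors holds the natural log of 1 plus UMIs per 10000 UMIs of a cell, as its values show; 100% of values above 0 were whole multiples of 1 step within 0.001, so UMIs were recovered as whole numbers. All columns were mapped to mice by prefix. A second, smoothed table was not used. The third HFD library differs in the form of its raw-read name, which may mark another sequencing run. No cell barcode (0) was shared between libraries, and no doublet caller was run.

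Sums of UMIs per mouse, or per mouse and lobule side, entered limma voom (version 3.58.1 in R 4.3.3) with trimmed-mean scaling. The filter was 32.4 CPM in 2 mice for diet, 64.7 CPM in 5 sums for the axis (10 UMIs at the median depth), and 15 UMIs in total. Log2 fold changes have HFD or pericentral on top. Intervals of levels are exact Poisson and of shares Clopper-Pearson, both 95%, and a count of 0 allows 3 counts; both cover counting error only. Shares were compared with SciPy 1.17.1. Transcripts and coordinates are from GENCODE vM21, promoters from RefSeq. The text names the 10 genes, the 2 genes of smallest p in each other list and the 3 nearest genes by correlation of each transferase found in over 50% of cells. The 10 genes and the lists were chosen with earlier results of these data known. The replicate numbers that HFD and LFD mice share are not stated to mark a pair or a batch. Alternatives tried were leaving out each mouse, limma-trend, other scaling and filters, a replicate block, leaving out the middle cells of the axis, another score, leaving out the 5% deepest cells or those with other markers, and thinning.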

Additional observations from a re-analysis of the deposited data

How the results depend on the processing

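HFD mouse 1, with 5 cells, decides most calls. Leaving out each mouse in turn gave 0 to 124 genes called for diet (8 with all), with 4 transferases without HFD mouse 1 (Gstm3 among them) and 0 otherwise, 0 to 159 genes along the axis (1 with all), with 4 transferases without HFD mouse 1 and 0 otherwise, and 0 to 2 for the interaction. Diet calls numbered 14 by limma-trend (0 transferases), 2 with every gene that had a UMI in 2 mice, 1 with at least 50 UMIs in total, 29 with the replicate number as a block (14 higher and 15 lower, 0 transferases), 2 without the 5% deepest cells, and 44 without cells with markers of other types (2 transferases). Axis calls numbered 3 with the middle cells left out, 0 without the mouse as a block (no replicate block) and 0 by limma-trend. Same-numbered mice had correlations of deviations of 0.03 and 0.07. With 2 LFD mice these deviations mirror each other, so the values can neither show nor exclude a pairing. The numbers were not taken to pair mice, since no pairing is stated. Changes of sign, none past the threshold, were as follows. For diet, Gsta3 gave -0.15 by limma-trend (log values) and -0.29 without cells with other markers, Gstt1 -0.014 and -0.086, Gstm2 0.10 without HFD mouse 1 (-0.40 without HFD mouse 3) and 0.014 with scaling by total UMIs, and Gsta2 0.62 without HFD mouse 2, 0.29 without HFD mouse 3 (-2.34 without HFD mouse 1), 0.069 by limma-trend and 0.49 with the block. Along the axis, Gstt1 gave -0.0085 without the middle cells, Gsta4 0.28 without HFD mouse 1 (-0.83 without HFD mouse 3), and Gsta2 0.95 without HFD mouse 3 (-0.54 without HFD mouse 1), 0.29 with a score without Cyp2e1 and Cyp2f2, and 0.14 by limma-trend. In the interaction, Gstp1 gave 0.46 without HFD mouse 2 (-0.68 without HFD mouse 1), Gsta4 0.059 without HFD mouse 1 (-1.67 without HFD mouse 3), and Gsta2 1.69 without HFD mouse 3 (-1.34 without HFD mouse 1) and 1.03 with the other score. The share difference in percentage points was for Gsta2 -6.80 unthinned, -0.237 at 1000 UMIs and -10.6 without HFD mouse 1 (up to 9.37 without HFD mouse 3), for Gsta3 -10.2, -10.1 and -0.290 without HFD mouse 2 (up to 3.39 without LFD mouse 2), and for Gstm2 0.192 without HFD mouse 1 or 3 (-4.66 without HFD mouse 2). The cause of these changes was not tested. Where leaving out a mouse left 1 in a diet, it was assumed to vary like the others. Gstp2, Gstm2 and Gstm3, with 6, 48 and 57 UMIs in all, are limited by depth.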

Other observations

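Some transferases outside the 10 genes are given here as values per mouse. Gsta1, the close copy of Gsta2, had 0, 1.52 and 51.3 CPM in the HFD mice (0, 1 and 3 UMIs), against 35.8 and 9.71 CPM in the LFD mice (16 and 3 UMIs), and its highest level was in HFD mouse 3. Gstm6, of the mu class, had 0, 35.0 and 0 CPM in the HFD mice, against 71.6 and 58.2 CPM in the LFD mice. Its HFD levels all lay under both LFD levels, but its 0 values allow up to 108 and 51.3 CPM in HFD mice 1 and 3. Of the HFD mice only mouse 2 reached the filter's level for Gstm6. Its log2 fold change was -1.06 (SE 0.46, limma voom adjusted p = 0.23) without HFD mouse 1 and -1.57 (SE 0.64, adjusted p = 0.923) with 5 mice. Gstz1, the zeta-class enzyme of tyrosine breakdown, was common, with 1434, 405 and 479 CPM in the HFD mice, against 448 and 366 CPM in the LFD mice, and HFD mouse 1 was the one apart. Its log2 fold change was 0.04 (SE 0.19) without that mouse and 0.35 (SE 0.44) with it. Gsto2, Mgst2 and Ptges had 0 UMIs in all 454 cells. These genes were chosen for mention after their values were seen.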
